A study of Mus musculus with 49 samples.

Results

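Nrf2, encoded by Nfe2l2, is the transcription factor that turns on antioxidant and detoxification genes under oxidative or electrophilic stress. Nfe2l2 and 9 genes known as its targets or as markers of the response (Slc7a11, Gclc, Gclm, Gstm1, Nqo1, Hmox1, Prdx6, Srxn1 and Txnrd1) were followed in the frontal cortex of mice fed a high fat diet. They were chosen by name, with earlier results of these data known, and make up 10 of the 24488 genes read from the expression table. Counts of calls among them, set beside those of all genes, are therefore description. All 10 had a row and passed the filter on low values in every comparison, with at least 104 reads in any library.

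The study sequenced mRNA from frontal cortex of 49 mouse libraries in 5 groups, all on a high fat diet. The libraries labelled AKO (amylin knockout, 4 months of diet, n = 10) carry the label of mice lacking the gene for amylin, a pancreatic islet hormone. CreTM and CreVE (n = 10 each) are mice with a conditional human amylin transgene, on the diet for 4 months, injected with tamoxifen in CreTM and with vehicle in CreVE; brains were taken 2 months after injection. WT mice had 4 months (n = 10) or 2 months (n = 9) of diet. The labels give no promoter or Cre driver of the transgene, no strain, sex or age, and no statement that each library is a separate animal, so p-values measure the spread between libraries. No group on a normal diet was used here. The 2-month and 4-month WT mice differ in time on the diet, and a difference in age cannot be told apart from it.

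In unstressed cells Nrf2 protein is held in the cytoplasm by Keap1 and is continually degraded, so the pathway is switched largely by protein stability and not by the level of Nfe2l2 mRNA. When Keap1 is modified, Nrf2 enters the nucleus, pairs with a small Maf protein and binds antioxidant response elements. In brain the response is known to be strongest in astrocytes, which supply neurons with glutathione precursors.

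Levels are given as log2 of the authors' normalised read count plus 1, and differences as the first-named group minus the second on that log2 scale. A gene was called where limma's moderated test, run over all genes, had a Benjamini-Hochberg adjusted p under 0.05, two-sided. Libraries held 29.2 to 75.6 M reads (M is 1000000). Iapp, the mouse amylin gene, went against the AKO label: it had 36 to 116 reads in each library labelled AKO, 0 in every CreTM library, 1 read in all CreVE libraries together, and 0 in every WT library of either diet time. The count was per gene, and where the deletion lies was not given, so a shortened transcript was not tested. The libraries labelled AKO 14 and 19 carried transcripts of olfactory mucosa. The mean log2 level of the 8 marker genes tested, of 12 listed, was 12.26 and 10.76 in them. It was 5.36 to 9.18 in the other libraries labelled AKO and 4.49 to 8.60 (mean 5.72) in WT at 4 months. Excitatory neuron markers were detected in every group (mean log2 level 12.56 to 12.79), and striatal markers ran from 8.78 to 12.24 between libraries. CreTM 9, CreVE 1 and CreVE 3 were lowest in excitatory neuron markers among the transgenic libraries. They were also highest in olfactory bulb markers, at mean log2 levels of 10.49, 11.31 and 11.70. The group means of those markers were 7.94 in CreTM and 8.45 in CreVE. WT libraries at 4 months numbered 21 to 25 also stood apart from those numbered 11 to 15 in immediate early genes, with a mean of 10.80 in 21 to 25 against 11.33 in 11 to 15. Comparisons were refitted without these libraries, though not every result is given both ways. Fewer cells of a type and less RNA per cell cannot be told apart in such bulk tissue.

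Promoter sequences, from 250 bases before to 50 bases after the start, were available from RefSeq (build GRCm38.p6) for 7 of the 10 genes, in 10 windows. The core antioxidant response element was searched as TGACNNNGC on both strands and occurs in 12.4% of all 32851 RefSeq windows of that length. It was present in 4 members, shown here because this element is what Nrf2 binds; capitals mark the match, each sequence is written along its gene's own strand (a match on the opposite strand appears as its reverse complement).
Nfe2l2 (chr2:75704885-75704913, minus strand, match beginning 240 bases before the start): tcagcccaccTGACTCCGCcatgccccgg
Srxn1 (chr2:152105542-152105570, plus strand, 29 bases after the start, opposite strand): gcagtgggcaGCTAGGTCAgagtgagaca
Gclm (chr3:122245413-122245441, plus strand, 134 bases before the start, opposite strand): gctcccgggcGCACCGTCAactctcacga
Txnrd1 (chr10:82859104-82859132, plus strand, 92 bases before the start, opposite strand, in 1 of its 3 windows): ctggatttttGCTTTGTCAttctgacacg
These letters were not in the windows of Slc7a11, Gstm1 or Nqo1, which says nothing of elements elsewhere.

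Srxn1 and Slc7a11 are shown in full for the 250 bases before the start, since their windows hold the letters of other elements given next. Both genes carried differences between groups described further on. So did Nqo1 and Gstm1, whose windows hold none of the letters searched. The Srxn1 stretch holds TGANTCA, the letters bound by AP-1 (Fos and Jun proteins) and overlapping in sequence with the response element family, 102 and 45 bases before the start. TGANTCA reads the same on both strands and occurs in 7.81% of all windows. The Slc7a11 stretch holds TGATGNAA, the amino acid response element bound by Atf4, 66 bases before the start and, on the opposite strand, 47 bases before it; 3.97% of all windows hold these letters on either strand.
Srxn1 (chr2:152105274-152105523, plus strand): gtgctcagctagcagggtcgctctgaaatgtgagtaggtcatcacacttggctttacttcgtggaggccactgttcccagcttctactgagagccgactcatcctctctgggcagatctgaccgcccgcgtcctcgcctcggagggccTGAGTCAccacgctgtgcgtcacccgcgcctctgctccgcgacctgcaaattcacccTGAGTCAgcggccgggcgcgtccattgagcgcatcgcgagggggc
Slc7a11 (chr3:50443614-50443863, minus strand): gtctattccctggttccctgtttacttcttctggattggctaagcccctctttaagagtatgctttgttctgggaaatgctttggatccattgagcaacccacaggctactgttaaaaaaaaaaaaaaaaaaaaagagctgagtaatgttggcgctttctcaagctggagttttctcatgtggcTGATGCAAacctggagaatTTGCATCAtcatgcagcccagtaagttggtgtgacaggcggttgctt

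All 10 genes were expressed in every group, at levels that differed more between genes than between groups. Per kilobase of annotated exon, averaged over all libraries, Gstm1, a glutathione S-transferase of astrocytes, was highest at 4080 normalised reads per kb. Srxn1, sulfiredoxin, which repairs over-oxidised peroxiredoxins, followed at 1850, and Prdx6, a peroxiredoxin that reduces phospholipid peroxides, at 1530. Gclc, the catalytic subunit of the rate-limiting enzyme of glutathione synthesis, stood at 763 reads per kb, against 247 for Gclm, its modifier subunit. Txnrd1, cytosolic thioredoxin reductase, lay at 400, Nfe2l2 at 186 and Slc7a11, the cystine importer, at 156. Nqo1, a quinone reductase, and Hmox1, inducible haem oxygenase, were lowest at 121 and 116 reads per kb. Gstm1 has related paralogs in the table (Gstm2 to Gstm7) and Prdx6 has Prdx6b, so reads may be shared among them and their absolute levels are uncertain.

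Across all 5 groups in a single limma model, 5 of the 10 genes passed the F test, against 23.2% of all genes tested. They were Prdx6 (adjusted p = 3.9e-06), Srxn1 (adjusted p = 0.0016), Slc7a11 (adjusted p = 0.0044), Gstm1 (adjusted p = 0.02) and Nqo1 (adjusted p = 0.035). Nfe2l2 did not pass (adjusted p = 0.079), nor did Gclc, Gclm, Hmox1 and Txnrd1 (adjusted p of 0.1 to 0.2). The spread between the highest and lowest group mean was 0.59 on the log2 scale for Nqo1, 0.44 for Slc7a11 and 0.30 for Prdx6, and 0.08 for Gclc. The Nqo1 call was lost in 5 of the fits that left out 1 library, those without WT 2-month library 32, 33, 35, 39 or 40 (adjusted p of 0.062 to 0.074).

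**Figure D1:**
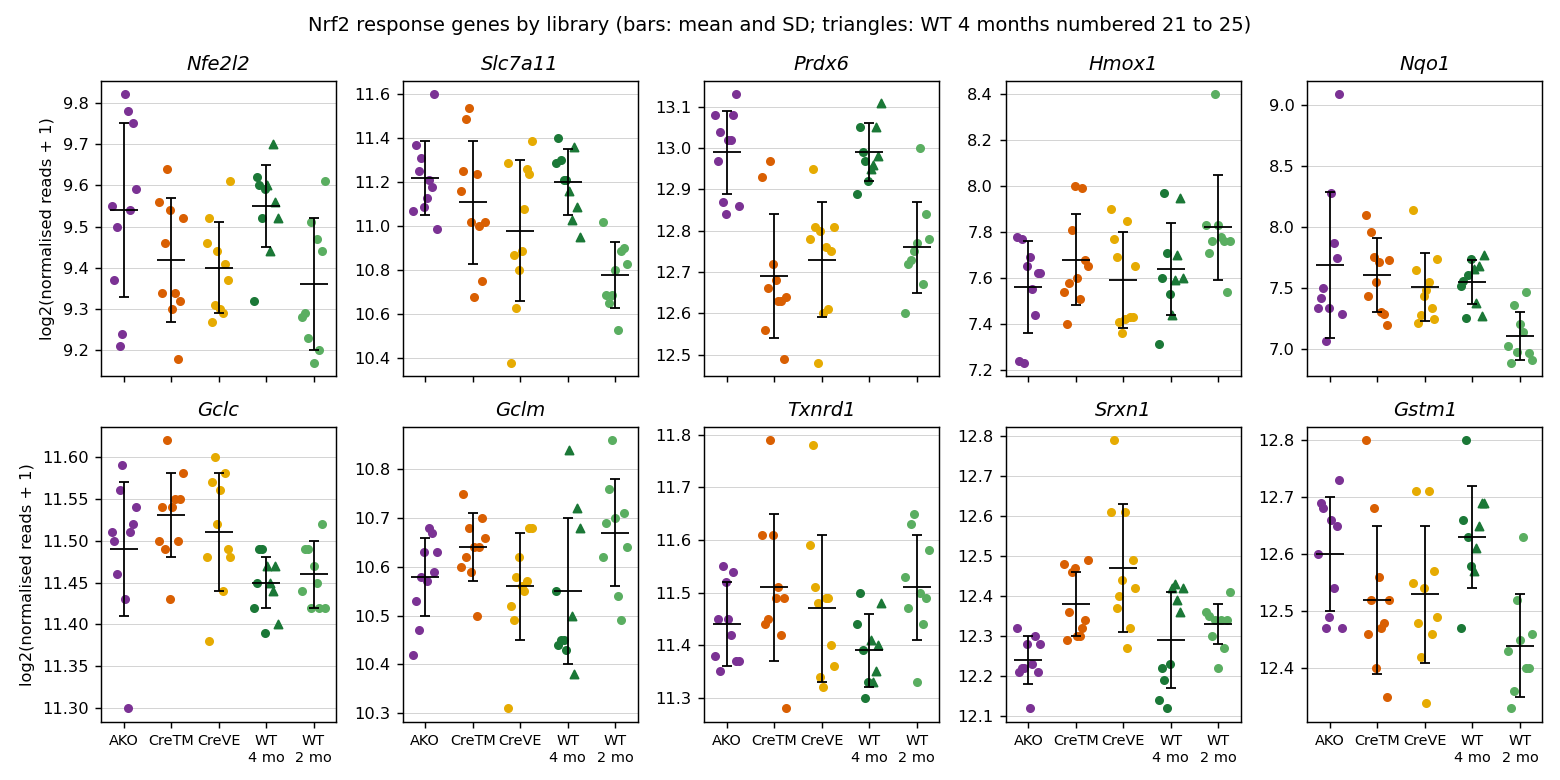
Level of each of the 10 genes in every library, as log2 of normalised reads plus 1, by group (AKO, CreTM and CreVE, then WT at 4 and 2 months of diet); each point is a library, bars give the mean and SD, and triangles are WT libraries at 4 months numbered 21 to 25. Prdx6 averaged 12.99 in AKO as well as in WT at 4 months and 12.69 to 12.76 in the other groups, Slc7a11 and Nqo1 were lowest in WT at 2 months, and the Srxn1 triangles lie above the other WT points at 4 months.

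The longer diet in WT mice was the comparison with the most calls among the 10 genes. At 4 months against 2 months, 4 genes rose and none fell, against 4.54% of all genes that rose and 4.15% that fell (8.69% in both directions, of 15234 tested). The 4 were the cystine importer Slc7a11, the quinone reductase Nqo1, the peroxiredoxin Prdx6 and the glutathione transferase Gstm1. Gclc and Gclm, which use the imported cystine for glutathione, were not among them, nor was Hmox1 or Nfe2l2 itself.

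Slc7a11 exchanges glutamate for cystine and so feeds glutathione synthesis. Its level ran from 10.95 to 11.40 (median 11.21) in WT cortex at 4 months and from 10.53 to 11.02 (median 10.80) at 2 months. The groups overlapped by a single library on either side, since 9 of 10 libraries at 4 months lay above the highest at 2 months. The difference of 0.42 (SE 0.06), a 1.34-fold rise, had an adjusted p of 0.002 and ranked 7 by p among all genes tested. Slc7a11 in WT at 2 months, averaging 10.78, was also below the 10.98 to 11.22 averaged by the other groups.

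Nqo1 reduces quinones and is a classic reporter of Nrf2 activity. It ran from 7.26 to 7.77 (median 7.59) at 4 months and from 6.89 to 7.47 (median 7.03) at 2 months. Here 7 of 10 libraries at 4 months exceeded every 2-month library, and all 10 were above the 2-month median. Nqo1 rose by 0.44 (SE 0.10), or 1.36-fold, with an adjusted p of 0.011, at 104 to 266 reads a library. With all 49 libraries in 1 model the adjusted p was 0.084.

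Prdx6 ran from 12.89 to 13.11 (median 12.97) in WT at 4 months and upwards from 12.60 (median 12.75) at 2 months. Of the 9 libraries at 2 months, 8 lay at or below 12.84, under the whole 4-month range, and library 37 lay within it. It rose by 0.22 (SE 0.04), or 1.17-fold, with an adjusted p of 0.0043.

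Gstm1, which conjugates glutathione to electrophiles, ran from 12.47 to 12.80 (median 12.64) at 4 months and from 12.33 to 12.63 (median 12.43) at 2 months. It rose by 0.19 (SE 0.04), or 1.14-fold, with an adjusted p of 0.01. Of the 10 libraries at 4 months, 6 were above every 2-month library.

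The other 6 genes did not pass. Nfe2l2 ran from 9.32 to 9.70 (median 9.58) at 4 months and from 9.17 to 9.61 (median 9.29) at 2 months, a difference of 0.19 (SE 0.06) with an adjusted p of 0.053. That value lies at the threshold: it was 0.047 to 0.049 with other scalings or a stricter filter and 0.024 to 0.044 without 1 library (WT 4-month 11 or 22, WT 2-month 37 or 40). Txnrd1 averaged 11.39 at 4 months and 11.51 at 2 months, a difference of -0.12 (SE 0.04) with an adjusted p of 0.061; it passed without WT 2-month library 36 (0.03) or 37 (0.043). Gclm differed by -0.12 (SE 0.06, adjusted p = 0.19), Hmox1 by -0.18 (SE 0.10, adjusted p = 0.26), Srxn1 by -0.04 (SE 0.04, adjusted p = 0.63) and Gclc by -0.01 (SE 0.03, adjusted p = 0.82).

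These calls depend on which of the 4-month WT libraries are used. With libraries 11 to 15 alone, Slc7a11 (0.51, adjusted p = 0.0029), Prdx6 (0.20, adjusted p = 0.034) and Nqo1 (0.43, adjusted p = 0.041) rose, and Gstm1 did not pass (0.19, adjusted p = 0.051). In the same fit Gclm fell by 0.20 (adjusted p = 0.038) and Srxn1 by 0.15 (adjusted p = 0.03), so that 5 members passed, with 7.45% of all genes called. With libraries 21 to 25 alone none of the 4 passed, at differences of similar size: 0.34 for Slc7a11 (adjusted p = 0.064), 0.25 for Prdx6 (adjusted p = 0.055), 0.45 for Nqo1 (adjusted p = 0.098) and 0.20 for Gstm1 (adjusted p = 0.067). Srxn1 (0.07, adjusted p = 0.29) and Gclm (-0.04, adjusted p = 0.81) did not pass either, and 36 genes of the whole table did, 0.234% of those tested.

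The wider pathway, 7 lists of regulators, enzymes and targets outside the 10 genes, held a few calls in the same comparison. In the glutathione list, 4 of 36 genes tested rose and 2 fell, with a median difference of 0.07, against 0.00 over all genes. Gstt1 (0.39, SE 0.05, adjusted p = 0.0016) and Gsta4 (0.25, SE 0.05, adjusted p = 0.0062), both glutathione transferases, rose, and Ggt7, a member of the gamma-glutamyltransferase family, fell by 0.17 (SE 0.04, adjusted p = 0.016). In the thioredoxin and peroxiredoxin list 2 of 19 rose: Prdx1, an abundant cytosolic peroxiredoxin (0.17, SE 0.04, adjusted p = 0.02), and Sepp1, the selenium carrier selenoprotein P (0.24, SE 0.07, adjusted p = 0.041). Idh1, which makes cytosolic NADPH, rose by 0.22 (SE 0.05, adjusted p = 0.01), alone among 8 genes of NADPH supply. Nqo2, the quinone reductase related to Nqo1, rose by 0.23 (SE 0.06, adjusted p = 0.025), alone among 21 other detoxification genes. None of 18 regulators and partners of Nrf2 passed limma's test (4 at an unadjusted p under 0.05, against 27.2% of all genes); the lowest p was that of Btrc, an E3 ligase adaptor that targets Nrf2 (-0.10, SE 0.04, adjusted p = 0.12). None of 11 haem and iron genes passed (2 unadjusted; Ftl1, ferritin light chain, 0.14, SE 0.05, adjusted p = 0.073), and none of 9 superoxide, catalase and metallothionein genes (2 unadjusted; Park7, 0.10, SE 0.03, adjusted p = 0.062).

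**Figure D2:**
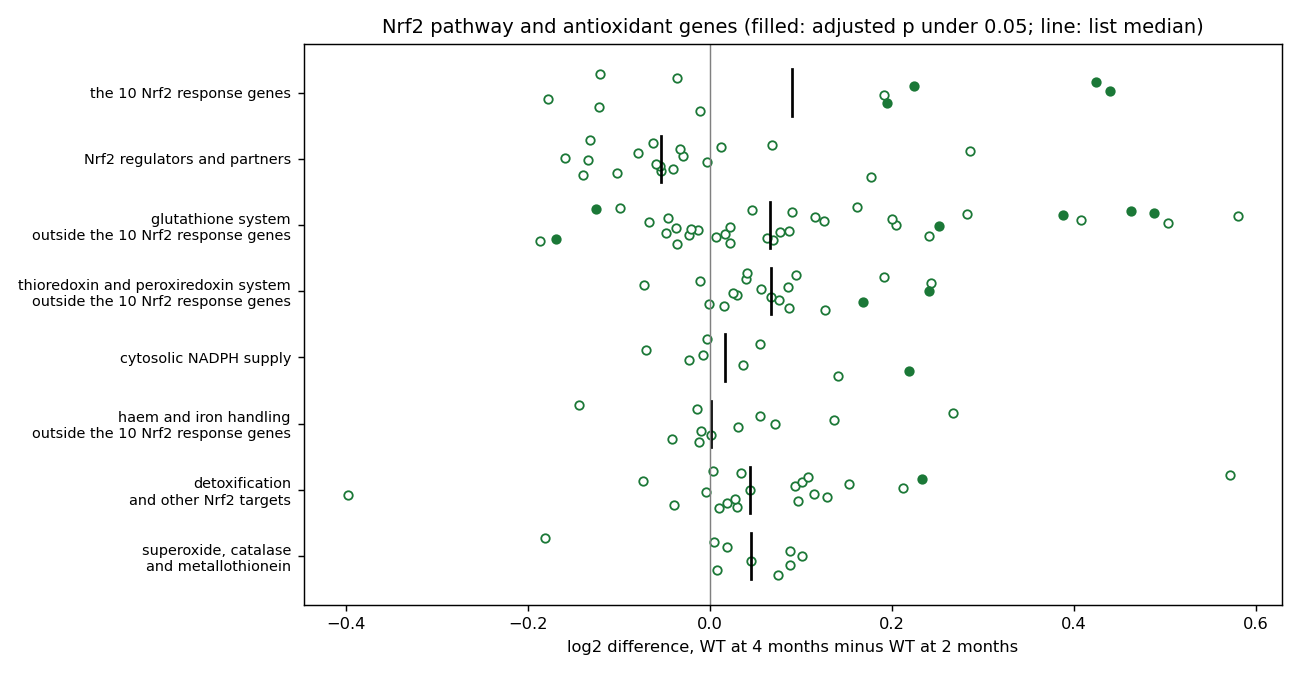
Difference between WT cortex at 4 and at 2 months of diet, in log2 units, for each gene tested of the 10 Nrf2 response genes and 7 further lists; each circle is a gene, filled circles passed the test and the line is the list's median. The 4 filled circles of the top row are Gstm1, Prdx6, Slc7a11 and Nqo1 at 0.19 to 0.44, and no regulator of Nrf2 is filled.

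Glial, vascular and regional markers moved with these genes. At 4 months against 2 months, 6 of 14 astrocyte markers rose (median difference 0.13; the list's summed level was 187000 to 211000 normalised reads per library at 4 months and 177000 to 196000 at 2 months). Microglial markers rose in 9 of 14 (median 0.21; sums 25600 to 29500 and 23400 to 28600), and endothelial markers in 6 of 14 (median 0.24; sums 21500 to 24800 and 19500 to 22300). Leptomeningeal markers rose in 2 of 14 (median 0.46), and 3 of 12 excitatory neuron markers fell (median -0.24). Olfactory bulb markers were higher in 10 of 11 (median 0.89) and striatal markers in 14 of 14 (median 0.51), with none called. Choroid plexus markers were higher in 9 of 9 tested (median 0.65), with none called. All 14 myelin markers were higher (median 0.23), 1 of them called. None of these lists had a marker at 0 in either group. Their part in the rise of the 4 genes was not tested.

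In the transgenic mice Prdx6 was the member that separated most clearly from WT mice at 4 months. It was lower in both transgenic groups, with tamoxifen and with vehicle. No other member was called in CreVE, and only Gclc in CreTM.

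In CreTM cortex Prdx6 ran from 12.49 to 12.97 (median 12.65), against 12.89 to 13.11 (median 12.97) in WT cortex at 4 months. In CreVE cortex it ran from 12.48 to 12.95 (median 12.77). All 10 CreTM and all 10 CreVE libraries were below the WT median, and 8 CreTM and 9 CreVE libraries were below every WT library. Prdx6 fell by 0.30 in CreTM (SE 0.05, 0.814-fold, adjusted p = 0.00054) and by 0.25 in CreVE (SE 0.05, 0.839-fold, adjusted p = 0.0035). Both comparisons use the same 10 WT libraries. Against WT libraries 11 to 15 alone the CreVE difference was -0.23 with an adjusted p of 0.092, the only alternative that lost it. The mean of Prdx6 in WT at 2 months, 12.76, lay beside the 12.69 of CreTM and the 12.73 of CreVE.

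Called members were 1 of 10 in CreVE against WT, with 6.17% of all genes called, and 2 of 10 in CreTM against WT, with 13.1%. The second in CreTM was Gclc, which ran from 11.43 to 11.62 (median 11.54) in CreTM and from 11.39 to 11.49 (median 11.45) in WT at 4 months. It rose by 0.08 (SE 0.03, 1.06-fold, adjusted p = 0.042), and 8 of 10 CreTM libraries were above every WT library. The call is fragile: it was lost on leaving out any single one of CreTM 15, 18, 27, 28, 44 or 45 or of WT 11, 12, 15 or 21 to 25 (adjusted p of 0.052 to 0.075), and with scaling by total reads (0.064). In CreVE Gclc differed from WT by 0.06 (SE 0.03, adjusted p = 0.21).

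Srxn1 was the highest of the 5 group means in CreVE, at 12.47, then 12.38 in CreTM; WT at 2 months averaged 12.33, WT at 4 months 12.29 and the libraries labelled AKO 12.24. CreVE ran from 12.27 to 12.79 (median 12.43), against 12.12 to 12.43 (median 12.29) in WT at 4 months, a difference of 0.18 (SE 0.06) that did not pass (adjusted p = 0.081). It passed with all libraries in 1 model (adjusted p = 0.0083) and without CreVE 16 (adjusted p = 0.047). CreTM differed from WT by 0.09 (SE 0.05, adjusted p = 0.23).

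The WT group at 4 months itself falls into separate ranges for Srxn1. Libraries 21 to 25 ran from 12.36 to 12.43 and libraries 11 to 15 from 12.12 to 12.23, with no overlap, at means of 12.40 in 21 to 25 and 12.18 in 11 to 15. The ranges of the other members overlapped. Gclm averaged 10.63 and 10.46 and Slc7a11 11.12 and 11.29 in 21 to 25 and in 11 to 15. How many of all genes separate these libraries was not counted, so the split cannot be called particular to Srxn1. Immediate early genes, which include Fos and Jun, ran the other way, from 10.58 to 11.06 in libraries 21 to 25 and from 11.13 to 11.50 in libraries 11 to 15. Striatal projection neuron markers averaged 11.59 in 21 to 25 and 10.61 in 11 to 15. Their part was not tested. Every Srxn1 comparison with WT at 4 months turns on this split. Against libraries 21 to 25 the difference was -0.02 in CreTM (adjusted p = 0.8) and 0.07 in CreVE (adjusted p = 0.67), and against libraries 11 to 15 it was 0.20 in CreTM (adjusted p = 0.02) and 0.29 in CreVE (adjusted p = 0.06).

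The remaining members did not pass in either transgenic group. Nfe2l2 ran from 9.18 to 9.64 in CreTM and from 9.27 to 9.61 in CreVE, against 9.32 to 9.70 in WT at 4 months. The differences were -0.13 (SE 0.06, adjusted p = 0.15) in CreTM and -0.15 (SE 0.05, adjusted p = 0.093) in CreVE, and the CreVE value passed without CreVE 41 (adjusted p = 0.046) or WT 11 (adjusted p = 0.041). Gstm1 differed by -0.11 in both CreTM (SE 0.05, adjusted p = 0.15) and CreVE (SE 0.05, adjusted p = 0.18); the CreTM value passed without CreTM 9 (-0.14, adjusted p = 0.02). Txnrd1 differed by 0.11 in CreTM (SE 0.05, adjusted p = 0.11), passing without CreTM 45 (0.14, adjusted p = 0.039), and by 0.08 in CreVE (SE 0.05, adjusted p = 0.36). Slc7a11, Nqo1, Hmox1 and Gclm had adjusted p of 0.24 to 0.94 in the transgenic groups. Gclm in CreTM passed against WT libraries 11 to 15 alone (0.17, adjusted p = 0.03) and not against 21 to 25 alone (0.01, adjusted p = 0.94). The 3 transgenic libraries lowest in excitatory neuron and highest in olfactory bulb markers, CreTM 9, CreVE 1 and CreVE 3, weighed on these values. Without them 4 members passed in CreVE: Prdx6, Nfe2l2 (-0.17, adjusted p = 0.031), Gstm1 (-0.13, adjusted p = 0.042) and Gclc (0.08, adjusted p = 0.041). Calls rose over the whole table in that fit, to 18% of all genes, against 6.17% with these libraries.

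Among pathway genes, members of the glutathione and NADPH lists held the lowest p in the transgenic groups. In the glutathione list 5 of 36 genes rose and 2 fell in CreTM, and 2 rose and 2 fell in CreVE. Chac1, which cleaves glutathione and is a target of Atf4, fell by 0.56 in CreTM (SE 0.08, adjusted p = 8.2e-05) and by 0.48 in CreVE (SE 0.08, adjusted p = 0.001). Gstz1, a glutathione transferase of tyrosine breakdown, rose by 0.34 in CreTM (SE 0.05, adjusted p = 0.00012) and by 0.28 in CreVE (SE 0.05, adjusted p = 0.002). Ggt7 rose by 0.19 in CreTM (SE 0.05, adjusted p = 0.0082) and by 0.21 in CreVE (SE 0.04, adjusted p = 0.0061). Of 8 NADPH genes, Pgd, the decarboxylating pentose phosphate dehydrogenase, rose by 0.22 in CreTM (SE 0.04, adjusted p = 0.0023) and by 0.23 in CreVE (SE 0.04, adjusted p = 0.0041). Taldo1, transaldolase of the same pathway, fell by 0.23 in CreTM (SE 0.03, adjusted p = 0.00021) and by 0.21 in CreVE (SE 0.04, adjusted p = 0.0046), and Idh1 fell by 0.17 in CreVE (SE 0.04, adjusted p = 0.016).

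The other lists held calls as well. Called in CreTM were 22.7% of detoxification, 19.4% of glutathione and 25% of NADPH genes, against 13.1% of all genes tested. In CreVE these shares were 4.55%, 11.1% and 37.5%, against 6.17% of all genes tested. Btrc fell by 0.19 in CreTM (SE 0.05, adjusted p = 0.013) and by 0.20 in CreVE (SE 0.06, adjusted p = 0.048), alone among 18 regulators. Of 19 thioredoxin genes, the mitochondrial thioredoxin Txn2 fell by 0.13 (SE 0.03, adjusted p = 0.014) and Txnrd3 rose by 0.42 (SE 0.13, adjusted p = 0.031) in CreTM, and none passed in CreVE (Txnrd3, 0.47, SE 0.17, adjusted p = 0.1). Of 22 detoxification genes, 1 rose and 4 fell in CreTM, with the lowest p for the esterase Esd, which fell by 0.24 (SE 0.05, adjusted p = 0.0017), followed by Entpd5, which fell by 0.10 (SE 0.03, adjusted p = 0.022), and Htatip2, which rose by 0.26 (SE 0.08, adjusted p = 0.033). Esd was the single call in CreVE, where it fell by 0.20 (SE 0.05, adjusted p = 0.016). In CreTM, Fth1, ferritin heavy chain, fell by 0.15 (SE 0.05, adjusted p = 0.049) and Sod2, the mitochondrial superoxide dismutase, by 0.11 (SE 0.03, adjusted p = 0.013); in CreVE they differed by -0.25 (SE 0.08, adjusted p = 0.083) and -0.10 (SE 0.03, adjusted p = 0.052). List medians lay between -0.09 and 0.02 in both comparisons, against 0.00 over all genes.

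Myelin markers moved with the transgenic groups: 13 of 14 fell in CreTM (median -0.43; summed level 95700 to 189000 normalised reads, against 175000 to 214000 in WT at 4 months) and 14 of 14 in CreVE (median -0.63; 89700 to 200000). Astrocyte markers had a median difference of -0.10 in both groups, and 13 of 14 were lower in each. Those called were 1 rising and 2 falling in CreTM and 1 rising and 1 falling in CreVE. Endothelial markers fell in 5 of 14 in CreTM (median -0.15; sums 19100 to 26800, against 21500 to 24800 in WT at 4 months) and in 4 of 14 in CreVE (median -0.22; 18600 to 23900). All 14 striatal markers were lower in both groups, with none called (medians -0.78 in CreTM and -0.75 in CreVE). The erythroid gene Alas2 rose by 1.23 in CreTM (SE 0.32, adjusted p = 0.016) and by 0.88 in CreVE (SE 0.19, adjusted p = 0.0082). Microglial markers fell in 1 of 14 in CreTM and 2 of 14 in CreVE. No marker of the myelin, astrocyte, endothelial, striatal or microglial lists was at 0. Their part in the Prdx6 difference was not tested.

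Tamoxifen, the agent that the labels set against vehicle in the conditional amylin mice, made no detectable difference to the 10 genes. In CreTM against CreVE none of the 10 passed limma's test or limma-voom on recovered reads, and none had an unadjusted p under 0.05, with 0% of all 15224 genes called and 3.3% under 0.05 unadjusted. Prdx6 averaged 12.69 ± 0.15 in CreTM and 12.73 ± 0.14 in CreVE (SD, n = 10 each), a difference of -0.04 with a 95% interval from -0.17 to 0.09. Nfe2l2 differed by 0.02 (interval -0.10 to 0.14), Gclc by 0.02 (-0.05 to 0.08) and Gstm1 by 0.00 (-0.12 to 0.11). The widest intervals were those of Slc7a11, from -0.14 to 0.40, and Nqo1, from -0.17 to 0.36, so differences within those ranges are not excluded here. The lowest p was that of Gclm, which averaged 10.64 in CreTM and 10.56 in CreVE, with 9 of 10 CreTM libraries above the CreVE median (difference 0.08, SE 0.04, unadjusted p = 0.073, adjusted p = 1). None of the pathway lists held a call either; Gpx3, the secreted glutathione peroxidase, had the lowest p of the glutathione list at a difference of 0.60 (SE 0.26, adjusted p = 1). The lowest p of the other lists belonged to Ppp2ca, Prdx4, Idh1, Alas1, Rxra and Mt1, with differences between -0.09 and 0.20.

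**Figure D3:**
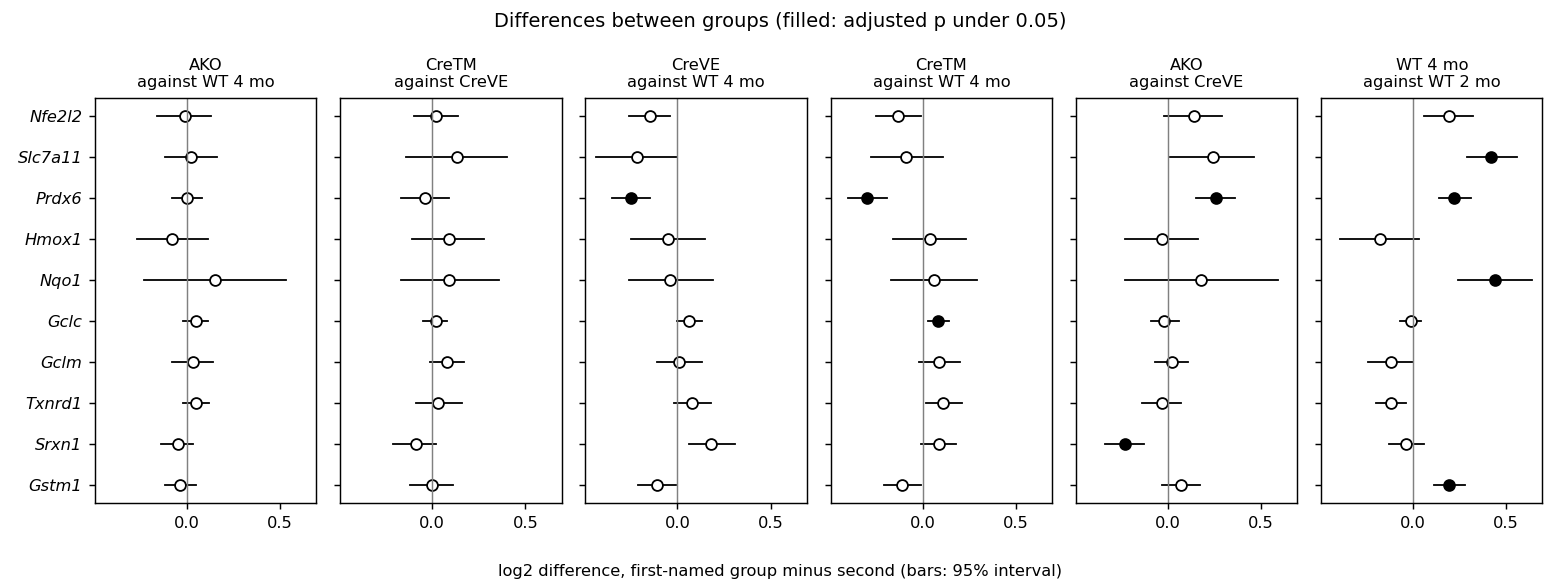
Difference in log2 level between groups for each of the 10 genes, first-named group minus second, in the 6 comparisons; circles are the limma estimates, bars their 95% intervals, and filled circles passed at an adjusted p under 0.05. Prdx6 is filled in 4 of the 6 panels, and no circle is filled in AKO against WT at 4 months or in CreTM against CreVE.

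The libraries labelled AKO did not differ detectably from WT cortex at 4 months in any of the 10 genes. None passed limma's test, nor limma-voom on recovered reads, with 0.786% of all 15269 genes called, and none had an unadjusted p under 0.05, against 14% of all genes. Prdx6 averaged 12.99 ± 0.10 in the libraries labelled AKO, against 12.99 ± 0.07 in WT (SD, n = 10 each), a difference of 0.00 (interval -0.08 to 0.08). Slc7a11 differed by 0.02 (-0.12 to 0.16), Gstm1 by -0.04 (-0.12 to 0.05), Gclc by 0.05 (-0.02 to 0.11), Txnrd1 by 0.05 (-0.02 to 0.12), Gclm by 0.03 (-0.08 to 0.14) and Hmox1 by -0.08 (-0.27 to 0.11). Nfe2l2 had nearly the same mean (9.54 in libraries labelled AKO, 9.55 in WT) but a wider spread, from 9.21 to 9.82 in the libraries labelled AKO and from 9.32 to 9.70 in WT. Against WT libraries 21 to 25 alone Srxn1 passed, at -0.16 (adjusted p = 0.024); against 11 to 15 alone it was 0.06 (adjusted p = 0.45), and with all WT libraries -0.05 (adjusted p = 0.58). Immediate early genes fell in 14 of 20 in this comparison (median -0.90). Their summed level was 33500 to 49400 normalised reads in the libraries labelled AKO, against 59300 to 88500 in WT at 4 months. All 14 myelin markers were lower (median -0.18, 2 called), and all 14 striatal markers were higher (median 0.38, none called). Astrocyte markers were lower in 11 of 14 (median -0.03, 1 called), and microglial markers were higher in 11 of 14 (median 0.06, none called). Endothelial markers were lower in 11 of 14 (median -0.10, none called). The part of these markers was not tested.

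Nqo1 was highest in the 2 libraries highest in olfactory mucosa markers. It ran from 7.07 to 9.09 (median 7.46) in the libraries labelled AKO, against 7.26 to 7.77 (median 7.59) in WT at 4 months. The top values, 9.09 and 8.28, belong to the libraries labelled AKO 19 and 14. The libraries labelled AKO 21 and 16 were next in these markers (mean log2 level 9.18 and 9.02), and their Nqo1, at 7.29 and 7.75, lay within the WT range. The Nqo1 difference was 0.15 (SE 0.18, adjusted p = 0.76) with all libraries labelled AKO. It was -0.10 (adjusted p = 0.74) without the libraries labelled AKO 14 and 19. No gene of the pathway lists passed in this comparison, and 0 to 7 genes of a list had an unadjusted p under 0.05, 0 to 44.4% of its genes. The lowest p were those of Tfrc, the transferrin receptor (0.21, SE 0.05, adjusted p = 0.054), and Ptgr1, a prostaglandin reductase (-0.57, SE 0.15, adjusted p = 0.074). In the other lists the gene with the lowest p was Slc1a1, a glutamate and cysteine transporter (-0.10), Sesn2 (-0.20), Bach1, a repressor of Nrf2 targets (-0.19), Sod1 (0.09) and Pgls (0.10), with adjusted p of 0.16 to 0.42.

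Set against the vehicle-injected transgenic mice, the libraries labelled AKO differed in 2 members, with 6.63% of all genes called. Prdx6 ran from 12.84 to 13.13 (median 13.02) in the libraries labelled AKO and from 12.48 to 12.95 (median 12.77) in CreVE. It rose by 0.26 (SE 0.05, 1.19-fold, adjusted p = 0.0082), with 7 of 10 libraries labelled AKO above every CreVE library. Srxn1 ran from 12.12 to 12.32 (median 12.22) in the libraries labelled AKO and from 12.27 to 12.79 (median 12.43) in CreVE. It fell by 0.23 (SE 0.05, 0.85-fold, adjusted p = 0.013), with all 10 libraries labelled AKO below the CreVE median. Both genes passed in every alternative run for this comparison, with adjusted p of 0.00082 to 0.034 for Prdx6 and 0.00086 to 0.044 for Srxn1. CreVE is also the group set against WT, so this comparison and that one share the CreVE libraries.

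Slc7a11 was above the CreVE median in all 10 libraries labelled AKO, at 10.99 to 11.60 against 10.38 to 11.39 in CreVE, yet did not pass (0.24, SE 0.11, adjusted p = 0.2). The other 7 members had adjusted p of 0.28 to 0.87. In the pathway lists Prdx1 rose by 0.16 (SE 0.04, adjusted p = 0.039), Idh1 by 0.23 (SE 0.04, adjusted p = 0.0042), Taldo1 by 0.19 (SE 0.04, adjusted p = 0.0058), Esd by 0.20 (SE 0.05, adjusted p = 0.02) and Ephx1, microsomal epoxide hydrolase, by 0.29 (SE 0.09, adjusted p = 0.047). Ggt7 fell by 0.23 (SE 0.04, adjusted p = 0.0044), Gstz1 by 0.24 (SE 0.05, adjusted p = 0.0077), Slc1a1 by 0.15 (SE 0.03, adjusted p = 0.012) and Pgd by 0.17 (SE 0.05, adjusted p = 0.049). In all, 2 of 36 glutathione genes rose and 4 fell. No regulator, haem and iron, or superoxide gene passed (Pgam5, -0.12, adjusted p = 0.055; Tfrc, 0.18, adjusted p = 0.072; Ucp2, -0.30, adjusted p = 0.076). Of 14 myelin markers 7 rose (median 0.41; sums 139000 to 196000 in the libraries labelled AKO and 89700 to 200000 in CreVE). All 14 striatal markers were higher, 2 of them called (median 1.19; sums 41300 to 124000 in the libraries labelled AKO and 24300 to 94600 in CreVE). Of 14 microglial markers 2 rose (median 0.11), of 14 endothelial markers 2 rose (median 0.06), and of 14 astrocyte markers 1 rose and 2 fell (median 0.06). Alas2 fell by 1.44 (SE 0.21, adjusted p = 0.00072). The part of these markers was not tested.

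Within groups, Nfe2l2 mRNA varied together with some of its targets and not with others. Over 49 libraries with group means removed, Pearson's r with Nfe2l2 was 0.56 for Prdx6 (Spearman's rho 0.56, permutation p = 4e-05, adjusted over 9 relations 0.00036), 0.49 for Nqo1 (rho 0.45, permutation p = 0.0028, adjusted 0.0095), 0.42 for Gstm1 (rho 0.40, permutation p = 0.0032, adjusted 0.0095) and 0.29 for Srxn1 (rho 0.35, permutation p = 0.019, adjusted 0.039). Gclc ran the other way, at -0.36 (rho -0.30, permutation p = 0.022, adjusted 0.039). Without the libraries farthest from the median of Nfe2l2 (labelled AKO 14 and 15), r was 0.59 for Prdx6, 0.43 for Nqo1, 0.47 for Gstm1 and 0.40 for Srxn1. For Gclc it was -0.21 (adjusted permutation p = 0.2), so that relation rests on those libraries. Hmox1 (0.28), Slc7a11 (0.18), Txnrd1 (0.14) and Gclm (0.05) had adjusted permutation p of 0.097 to 0.75.

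Over all 45 pairs of the 10 genes, r was above 0 in 30 and had a median of 0.09. The highest pair was Prdx6 with Gstm1, at 0.76. Gclc and Gclm, the subunits of 1 enzyme, had an r of 0.06. Libraries share their tissue makeup, so marker levels were set beside these values: the mean of the 14 astrocyte markers had an r of 0.81 with Gstm1, 0.75 with Prdx6, 0.57 with Nfe2l2 and 0.52 with Nqo1. Slc7a11 stood nearer to endothelial (0.67) and leptomeningeal (0.65) markers than to astrocyte markers (0.28). Excitatory neuron markers had an r of -0.67 with both Gstm1 and Prdx6 and -0.51 with Txnrd1, and olfactory mucosa markers 0.62 with Nfe2l2. The part of tissue makeup in the relations with Nfe2l2 was not tested. These relations were not recomputed without the library labelled AKO 19, whose Nqo1 was 9.09.

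**Figure D4:**
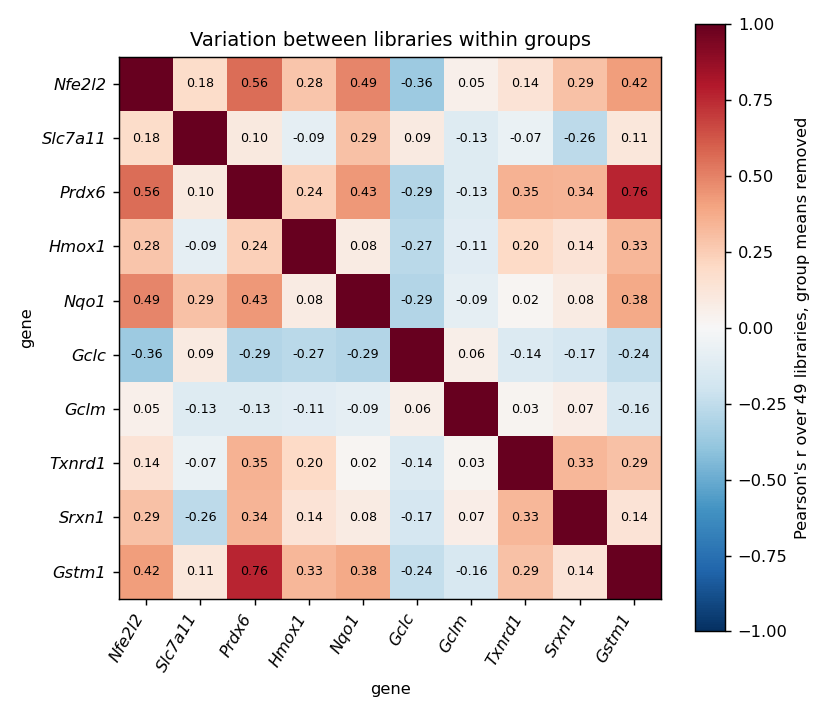
Pearson's r between the levels of each pair of the 10 genes over 49 libraries after removing group means; red is positive and blue negative. Prdx6 and Gstm1 form the deepest red pair at 0.76, Nfe2l2 is red with Prdx6 (0.56), Nqo1 (0.49) and Gstm1 (0.42), and the rows of Gclc and Gclm are mostly pale or blue.

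Of the 15844 genes ranked by r with Nfe2l2 in the same libraries, the 5 most alike were Cbr2, carbonyl reductase 2 (0.70), Stom, stomatin (0.69), Plin2, the lipid droplet protein perilipin 2 (0.68), Adipor1, an adiponectin receptor (0.67), and Vim, vimentin (0.63). Each had a higher r than any of the 9 other members. Over groups, Nfe2l2 ranked WT at 4 months (9.55 ± 0.10) and the libraries labelled AKO (9.54 ± 0.21) above CreTM (9.42 ± 0.15), CreVE (9.40 ± 0.11) and WT at 2 months (9.36 ± 0.16; SD, n = 9), and every step between neighbours was smaller than their SD.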

How the data were processed

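Per the labels, libraries were made with a stranded mRNA kit (Illumina TruSeq). Aligner, counter, strand setting and genome build: not given in the sources used here. The deposited table holds log2 values: 24495 genes by 50 value columns, of which 1 matched no sample and was not used. Tested on the file, the authors' values are log2(reads divided by a size factor, plus 1): 99.92 to 100.00% of values up to 200 reads came out whole within 0.1 read. 7 genes that did not were left out, and 27 symbols turned into dates were restored.

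Libraries held 29.2 to 75.6 M recovered reads (median 42.0 M). No 2 libraries of the same group agreed within sampling noise (chi-square per gene of at least 6.62). Pairs across groups were not compared. limma 3.58.1 in R 4.3.3 (trend, robust) was fitted to the deposited log2 values of the groups compared, for genes whose level was worth 10 or more reads of a median-depth library, in at least as many libraries as the smaller of the groups holds; p-values were Benjamini-Hochberg adjusted over all genes. Relations with Nfe2l2 used 100000 permutations within groups. The scripts were tested on simulated data.

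All 10 members are named; from each pathway list, up to 3 called genes with the lowest p per comparison, or the single lowest where none was called. Members and lists were chosen with earlier results of these data known. WT numbers 11 to 15 and 21 to 25 are label numbers; the labels do not call them batches. Alternatives were other filters, a pseudocount of 8, limma-voom on recovered reads, other scalings, all libraries in 1 model, subsets and single libraries left out.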

Additional observations from a re-analysis of the deposited data

Results flagged for a closer look

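Of 50 group values checked (10 genes in 5 groups), 2 held a library far from the others by Dixon's test; chance flags about 5% of groups. Hmox1 in WT 2-month library 35 was 8.40 on the log2 scale (508 reads), and the next library of that group was 7.83. Gclm in CreVE library 1 was 10.31 (1050 reads), and the next library was 10.49. That library was also high in olfactory bulb markers (mean log2 level 11.31).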

How the results depend on the processing

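Calls were counted under each alternative, and the cause of each change was not tested. With WT 4-month libraries 21 to 25 alone, members called were 1 in AKO against WT (0 with all libraries), 1 in CreTM against WT (2 with all) and 0 in WT at 4 against 2 months (4 with all). Of all genes, 1%, 7.99% and 0.234% were called in these fits, against 0.786%, 13.1% and 8.69% with all libraries. With 11 to 15 alone CreVE against WT had 0 (1 with all), and CreTM against WT had 3, adding Gclm and Srxn1 and losing Gclc. WT at 4 against 2 months had 5, adding Gclm and Srxn1 as lower and losing Gstm1. In these 11 to 15 fits 1.04%, 4.34% and 7.45% of all genes were called, against 6.17%, 13.1% and 8.69% with all libraries. With all libraries in 1 model CreVE against WT had 2, and with scaling by total reads CreTM against WT had 1. Without CreTM 9, CreVE 1 and CreVE 3, an alternative chosen after seeing the data, CreVE against WT had 4, with 18% of all genes called (6.17% with them). Leaving out 1 library gave 4 to 6 members for the 5-group test, 2 to 2 for AKO against CreVE, 0 to 0 for AKO against WT and for CreTM against CreVE, 1 to 3 for CreTM against WT, 1 to 2 for CreVE against WT and 4 to 6 for WT at 4 against 2 months. For the single-library, 1-model and total-read fits the share of all genes called was not set beside these counts. Over 3430 values of single genes under an alternative, 3220 kept their side of the threshold (59 uncalled ones with another sign), 178 fell short of it and 32 passed it, and no called value changed sign. No scaling moved the median of all genes by over 0.1. With the replicate block, members called were 0 in AKO against WT and 2 in CreTM against WT, as without it. Same-numbered libraries did not deviate together (r of -0.28 to 0.11 for AKO, 0.04 and -0.08 for CreTM), so the numbers do not pair them. Hmox1 and Nqo1 rest on 104 to 508 reads a library and the other 8 genes on at least 424; the part of counting error in their spread was not tested.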
